A study of Mus musculus with 15 samples.

Results

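The genes examined were 30 mouse genes of glycolysis and of the cellular response to low oxygen, chosen by symbol as a list that runs from glucose uptake to lactate export, with the hypoxia-inducible factors, the oxygen sensors that limit them and 4 of their classical targets. All 30 were found among the 41819 genes of the pterosin B table and passed the filter on low counts, and 4 of them were among the 2275 genes of the knockout table. The pterosin B table holds a second gene ID that is also named Aldoa, which was left out. RNA sequencing had been done on cultures of bone marrow monocytes grown with M-CSF, the growth factor that keeps macrophage precursors alive, and most groups also received RANKL, the cytokine that turns these cells into bone-resorbing osteoclasts. The series' own design text speaks of embryonic livers, while every sample label gives bone marrow monocytes; the labels are followed here. Each of the 5 groups held 3 libraries. SCRP cells had M-CSF at 50 ng/ml for 2 days, and then 3 days of M-CSF and RANKL, at 50 ng/ml each, together with pterosin B at 300 µM, a compound reported to inhibit signalling by the kinase SIK3. SCR cells had the same M-CSF and RANKL without pterosin B. SC cells are labelled as vehicle, with M-CSF and no RANKL, and the labels do not say when they were harvested or whether SCR cells received vehicle. A part of days in culture in the differences between SCR and SC cells therefore cannot be told apart from RANKL. KO cells came from Rank_Cre/+; Sik3_flox/flox mice, in which Cre made from the Rank locus deletes Sik3 in cells that express RANK, and were grown for 2 days in M-CSF and for 2 more days in M-CSF and RANKL. WT cells had the same culture and are labelled as wild type; the protocol names both C57BL/6J and Rank_Cre/+ mice, and which of these gave the WT libraries is not stated, so a share of the difference that comes from Cre itself cannot be told apart. The strain is C57BL/6J in every group. The labels do not say whether the 3 libraries of a group came from separate animals, so the p-values measure the spread between these libraries, which may be technical.

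Glycolysis splits glucose into pyruvate in a chain of enzymes, most of which exist as several isozymes made from different genes. Pyruvate is then reduced to lactate and exported, or enters the mitochondria, and the pyruvate dehydrogenase kinases decide between these routes. HIF-1α and HIF-2α, the products of Hif1a and Epas1, are destroyed when oxygen is plentiful, because the EGLN prolyl hydroxylases mark them for degradation. When oxygen falls they bind a short hypoxia response element and raise glycolytic genes, Vegfa and mitophagy genes. Osteoclasts hold many mitochondria and also export acid and lactate, and both routes of glucose use have been described in them.

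The core of the hypoxia response element is ACGTG or GCGTG, and the bases before the transcript starts of 5 members are printed to show how differently they carry it. They are Hk3, Pfkfb3 and Ldhb, which were listed in the knockout table, and Ldha and Slc16a1, which make and export lactate. Vegfa was also listed there and is not printed. These 5 were picked as examples, so the contrast between them does not stand for the members as a whole. The sequences are from RefSeq on GRCm38.p6, run 5′ to 3′ on the strand of the gene from 250 bases before a transcript start to 50 after it, and carry in capitals each core, read on either strand (CACGT and CACGC are the cores of the opposite strand, and CACGTG holds a core on each strand, which overlap). The windows are chr13:55021336-55021635 (minus strand) for Hk3, chr2:11553880-11554179 (minus strand) for Pfkfb3, chr6:142507908-142508207 (minus strand) for Ldhb, chr7:46845554-46845853 (plus strand) for Ldha and chr3:104638414-104638713 (plus strand) for Slc16a1.
Hk3: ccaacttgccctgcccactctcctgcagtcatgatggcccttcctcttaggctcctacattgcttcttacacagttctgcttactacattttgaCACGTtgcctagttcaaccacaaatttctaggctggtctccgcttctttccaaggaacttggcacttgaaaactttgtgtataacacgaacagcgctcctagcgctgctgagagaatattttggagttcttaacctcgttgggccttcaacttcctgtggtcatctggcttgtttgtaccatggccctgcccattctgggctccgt
Pfkfb3: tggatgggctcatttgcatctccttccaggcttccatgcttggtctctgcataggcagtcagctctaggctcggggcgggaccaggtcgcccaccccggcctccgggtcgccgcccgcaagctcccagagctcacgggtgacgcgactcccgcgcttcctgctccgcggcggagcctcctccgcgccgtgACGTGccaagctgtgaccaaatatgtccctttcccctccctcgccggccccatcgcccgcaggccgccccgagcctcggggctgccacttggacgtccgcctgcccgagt
Ldhb: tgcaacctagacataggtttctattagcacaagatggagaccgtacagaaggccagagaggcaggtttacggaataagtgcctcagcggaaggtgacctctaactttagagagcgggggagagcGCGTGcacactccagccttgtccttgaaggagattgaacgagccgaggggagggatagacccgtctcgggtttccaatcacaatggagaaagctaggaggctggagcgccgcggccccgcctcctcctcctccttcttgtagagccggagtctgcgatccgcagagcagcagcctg
Ldha: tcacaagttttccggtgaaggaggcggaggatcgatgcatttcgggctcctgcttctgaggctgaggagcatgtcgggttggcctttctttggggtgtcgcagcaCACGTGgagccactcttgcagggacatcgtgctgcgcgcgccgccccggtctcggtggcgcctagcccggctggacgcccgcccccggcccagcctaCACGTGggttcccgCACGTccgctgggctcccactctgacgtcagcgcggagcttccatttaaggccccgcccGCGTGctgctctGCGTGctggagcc
Slc16a1: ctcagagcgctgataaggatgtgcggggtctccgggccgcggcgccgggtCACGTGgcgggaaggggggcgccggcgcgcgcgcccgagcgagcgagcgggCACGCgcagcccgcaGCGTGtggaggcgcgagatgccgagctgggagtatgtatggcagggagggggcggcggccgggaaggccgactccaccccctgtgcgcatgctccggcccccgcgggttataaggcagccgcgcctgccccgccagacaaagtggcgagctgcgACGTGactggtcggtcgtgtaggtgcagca
The printed windows held 7 cores for Ldha, 5 for Slc16a1 and 1 each for Hk3, Pfkfb3 and Ldhb. A window at another start, not printed, held 2 cores for Ldha, both GCGTG, and 4 for Pfkfb3, so the count depends on the start. Of the 30 members, 28 had at least 1 window in the table, 41 windows in all. A core was present in 33 of the 41 member windows (80.5%), in 60.6% of the 13122 windows of genes tested and in 43.8% of all 32851 windows. For ACGTG on either strand the shares were 56.1% of member windows, 25.2% of windows of genes tested and 19.6% of all windows. Tpi1 and Gpi1 had no core in their windows, and a match or its absence in these letters says nothing about binding.

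The pterosin B libraries held 37138648 to 49927591 exon reads each, and the knockout libraries 21267111 to 25932103 reads as implied by their RPKM. Of gene counts from 1 to 39, 75.3% to 79.0% were even in the pterosin B libraries, against 45.5% to 50.7% in the knockout libraries, so a read number of the pterosin B table may count both mates of a pair and stand for fewer fragments. The 30 members took 1.34% to 1.39% of exon reads in SCRP libraries, 1.44% to 1.46% in SCR libraries and 1.36% to 1.39% in SC libraries. The 10 osteoclast markers summed to 1026 to 1352 CPM (read counts over the scaled library total, on the usual CPM scale) in SCRP cells, 5400 to 5644 CPM in SCR cells and 72.3 to 74.7 CPM in SC cells. The 10 macrophage markers summed to 10599 to 12226 CPM in SCRP, 6807 to 8000 CPM in SCR and 22232 to 24687 CPM in SC. In SCRP against SCR, 6 of these 10 were higher, 1 was lower and 3 did not pass an adjusted p of 0.05 in edgeR. Of all genes tested, 17.9% were higher and 19.9% lower. Neutrophil markers reached at most 19.9 CPM in SCRP, 67.8 CPM in SCR and 121 CPM in SC, lymphoid markers stayed under 2 CPM in all 9 libraries with Cd3e, Cd3g, Cd8a and Ncr1 at 0 in every group, and erythroid and megakaryocyte markers summed to 32.4 to 59.7 CPM in SCRP, 30.5 to 48.2 CPM in SCR and 246 to 260 CPM in SC. Stromal markers summed to 12.2 to 17.3 CPM over all 9 libraries. In these bulk cultures fewer cells of a type and less RNA per cell cannot be told apart, and the part of these shifts in the results on the members was not tested.

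Several members have processed copies in the genome, so reads that map to 1 place only are given beside all reads. Gapdh has 174 annotated pseudogenes of at least 90% identity over at least 50% of their length; 123152 of its 1058592 exon reads (11.6%) were unique. The unique share was 50.9% for Eno1, which has 7 such copies, and 53.7% for Bnip3, which has 4. It was 54.8% for Ndrg1, 63.9% for Hif1a and 65.2% for Slc2a1, for which no such copy was found. It was 97.8% for Ankrd37 and 99.5% or more, after rounding, for the other 23 members, among them Ldha with 13 annotated copies. With unique reads in place of all reads, the SCRP and SCR libraries gave the same calls for all 30 members. Between SCR and SC, 29 of 30 calls were kept, the exception being Ldhb (adjusted p = 0.0508 by edgeR on unique reads), and between SCRP and SC the exception was Gapdh (log2 -0.08 ± 0.06, edgeR adjusted p = 0.30 on unique reads, 0.048 on all reads). Ndrg1 moved most in size: its difference from SC was -0.996 ± 0.12 (log2, SE) in SCR cells on unique reads and -0.82 ± 0.13 on all reads.

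Levels per length spanned a wide range. In SCR cells Gapdh stood at 631 ± 14 RPKM (SD, n = 3), Pkm at 556 ± 10, Aldoa at 540 ± 0.96, Pgk1 at 389 ± 8.1, Pgam1 at 308 ± 15, Eno1 at 298 ± 7.5 and Ldha at 257 ± 1.1 RPKM. Tpi1 stood at 174 ± 4.2 and Gpi1 at 90.9 ± 0.33 RPKM. The SD ranges of the Pgam1 and Eno1 levels overlapped. The glucose transporter Slc2a1 had 29.3 ± 0.76 RPKM and the 3 hexokinases together 60.4 ± 0.65 RPKM. At the low end Epas1 had 0.812 ± 0.12, Ankrd37 0.676 ± 0.18 and Egln3 0.432 ± 0.077 RPKM, so these are measured with few reads.

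RANKL and pterosin B were each read in the same fit of the 9 libraries. Calls are at an adjusted p under 0.05 in edgeR's quasi-likelihood test with Benjamini-Hochberg adjustment over the 13650 genes tested, and the 2 comparisons share the SCR libraries. Between SCRP and SCR cells, 4 members were higher, 12 lower and 14 not called, against 17.9% of all genes tested called higher and 19.9% lower (37.8% in all). Between SCR and SC cells, 12 members were higher, 14 lower and 4 not called, while 30.7% of all genes tested were higher and 28.4% lower (59.1% in all). On library totals without TMM scaling factors the share of calls that were higher was 62.4% in SCR against SC, beside 52.0% with them, and the median log2 fold change of all genes tested was 0.12. At a fold of at least 1.5, no member was higher and 2 were lower in SCRP against SCR (all genes tested: 4.04% higher and 7.33% lower, 11.4% in all), and 2 were higher and 7 lower in SCR against SC (all genes tested: 13.7% higher and 14.7% lower, 28.4% in all). The library ranges did not overlap for 16 members in SCRP against SCR and for 26 in SCR against SC, against 49.3% and 65.4% of all genes tested. The median member log2 fold change was -0.05 in SCRP against SCR and -0.08 in SCR against SC, beside 0.0046 and 0.02 for all genes tested.

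**Figure D1:**
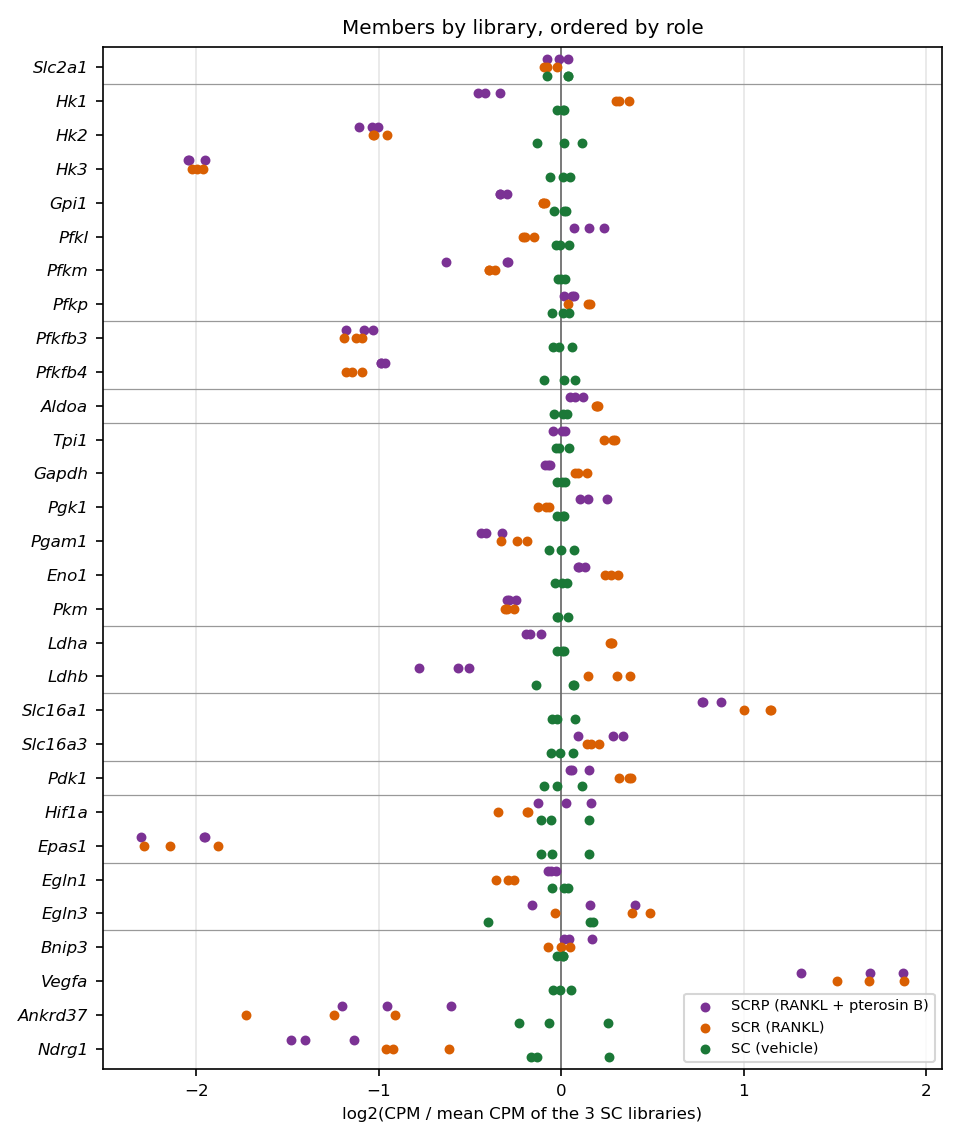
Level of each member in every library of the pterosin B experiment as log2 of its CPM over the mean of the 3 SC libraries; 1 point is 1 library, rows are genes ordered by role, and lines divide the roles. Hk3, Epas1, Hk2, Pfkfb3, Pfkfb4, Ankrd37 and Ndrg1 lie farthest left in both RANKL groups, Vegfa and Slc16a1 far right, and most enzymes of the lower pathway stay near SC.

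Members were also counted over both comparisons. In all, 9 members were higher in SCR than SC and lower in SCRP than SCR: Hk1, Aldoa, Tpi1, Gapdh, Eno1, Ldha, Ldhb, Slc16a1 and Pdk1; of all genes tested 12.8% did so. Pfkl, Hif1a and Egln1 went the other way, lower in SCR than SC and higher in SCRP than SCR, as did 11.0% of all genes tested. Hk2, Hk3, Pfkfb3, Pfkfb4, Pfkm, Pkm, Epas1 and Ankrd37 were lower in SCR than SC and were not called between SCRP and SCR. Gpi1, Pgam1 and Ndrg1 were lower in both comparisons, and Pfkp, Slc16a3 and Vegfa were higher in SCR than SC and not called between SCRP and SCR. Pgk1 was called only as higher in SCRP than SCR, and Slc2a1, Bnip3 and Egln3 in neither comparison.

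**Figure D2:**
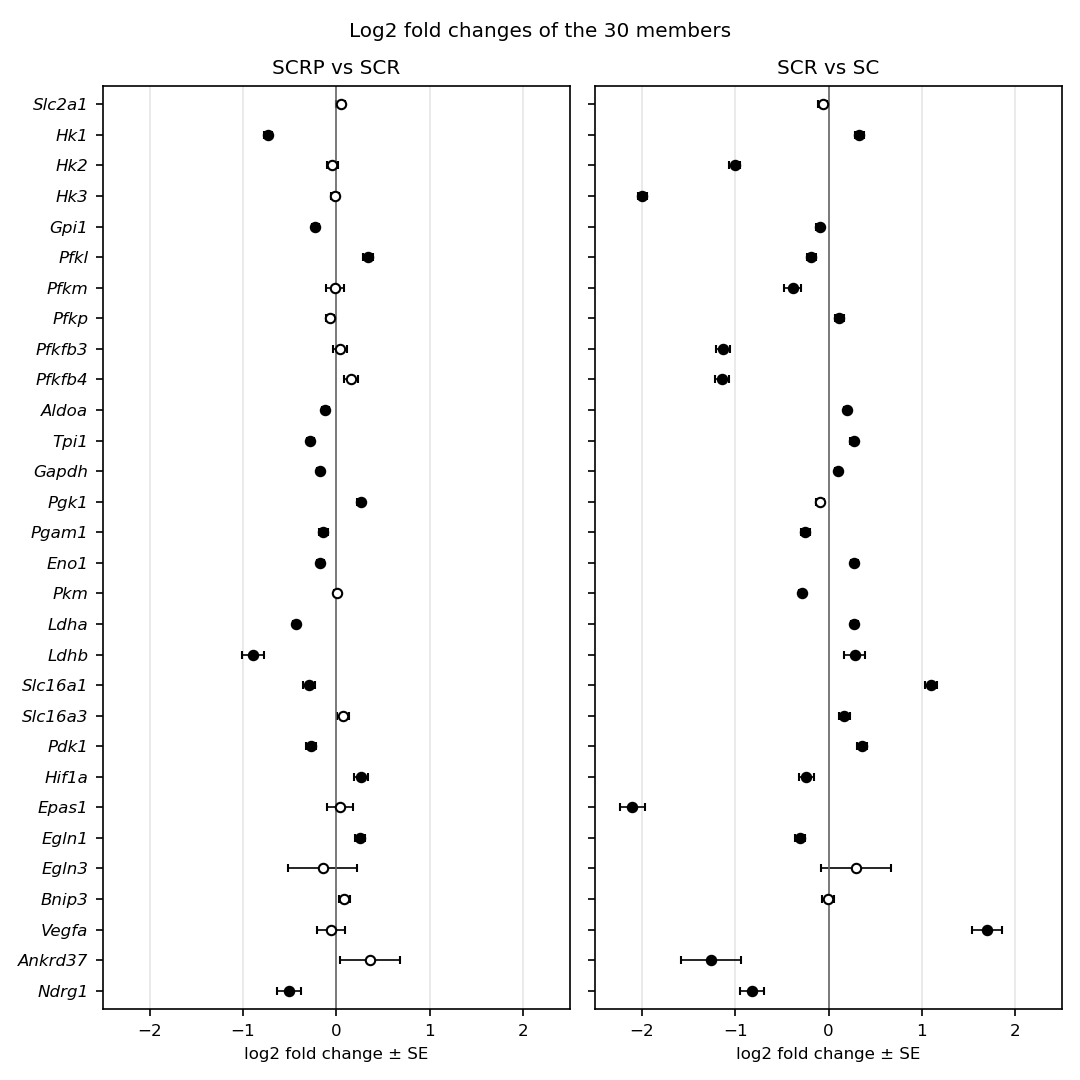
Log2 fold change ± SE of each member in SCRP against SCR (left) and SCR against SC (right) from edgeR; filled circles passed an adjusted p of 0.05 and open circles did not. The largest shifts are in SCR against SC, and in SCRP against SCR the largest are Ldhb at -0.89 and Hk1 at -0.73.

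At the entry of the pathway, Slc2a1, the facilitative glucose transporter GLUT1, had 115, 119 and 110 CPM in SCRP, 108, 114 and 110 CPM in SCR and 119, 119 and 110 CPM in SC. The 3 groups overlapped, and no comparison passed the test (adjusted p from 0.28 to 0.78, edgeR).

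The hexokinases, which trap glucose as glucose 6-phosphate, changed in both amount and kind. Hk3, the isozyme typical of myeloid cells, had 120, 127 and 119 CPM in SCRP, 121, 126 and 123 CPM in SCR and 509, 494 and 471 CPM in SC. Both RANKL groups lay far below SC and overlapped each other. Hk3 was 3.99-fold lower in SCR than SC (log2 -1.995 ± 0.05 SE, edgeR adjusted p = 3.94e-15) and differed by -0.02 ± 0.05 between SCRP and SCR (adjusted p = 0.81). Hk2, the inducible muscle and tumour isozyme, followed it: it had 63.8, 65.2 and 60.8 CPM in SCRP, 64.0, 67.5 and 64.2 CPM in SCR and 141, 132 and 119 CPM in SC, a log2 difference of -1.004 ± 0.06 in SCR against SC (edgeR adjusted p = 3.01e-10). Hk1, the widely expressed isozyme that docks on mitochondria, went the other way. It had 106, 103 and 112 CPM in SCRP, 182, 176 and 174 CPM in SCR and 139, 143 and 142 CPM in SC, so that SCR stood above both other groups and SCRP below both. Hk1 was 1.26-fold higher in SCR than SC (edgeR adjusted p = 8.63e-06) and 1.66-fold lower in SCRP than SCR (edgeR adjusted p = 2.99e-09).

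Summed per length, the 3 hexokinases stood at 52.4 ± 0.91 RPKM in SCRP, 60.4 ± 0.65 in SCR and 149 ± 5.2 in SC (SD, n = 3 each). Of that sum Hk3 made up 58.9% ± 1.0 in SCRP, 51.4% ± 0.70 in SCR and 77.6% ± 0.10 in SC. The Hk1 share was 22.3% ± 1.3 in SCRP, 31.9% ± 0.95 in SCR and 9.63% ± 0.50 in SC. The libraries of any 2 groups did not overlap in either share, and the two-sided exact permutation test gave 0.1, the smallest p that 3 against 3 libraries allow. Hk3 shares its locus with Unc5a on the other strand, which had 1096 exon reads in all 9 libraries together, and the strand that was counted is not given in the sources used here.

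**Figure D3:**
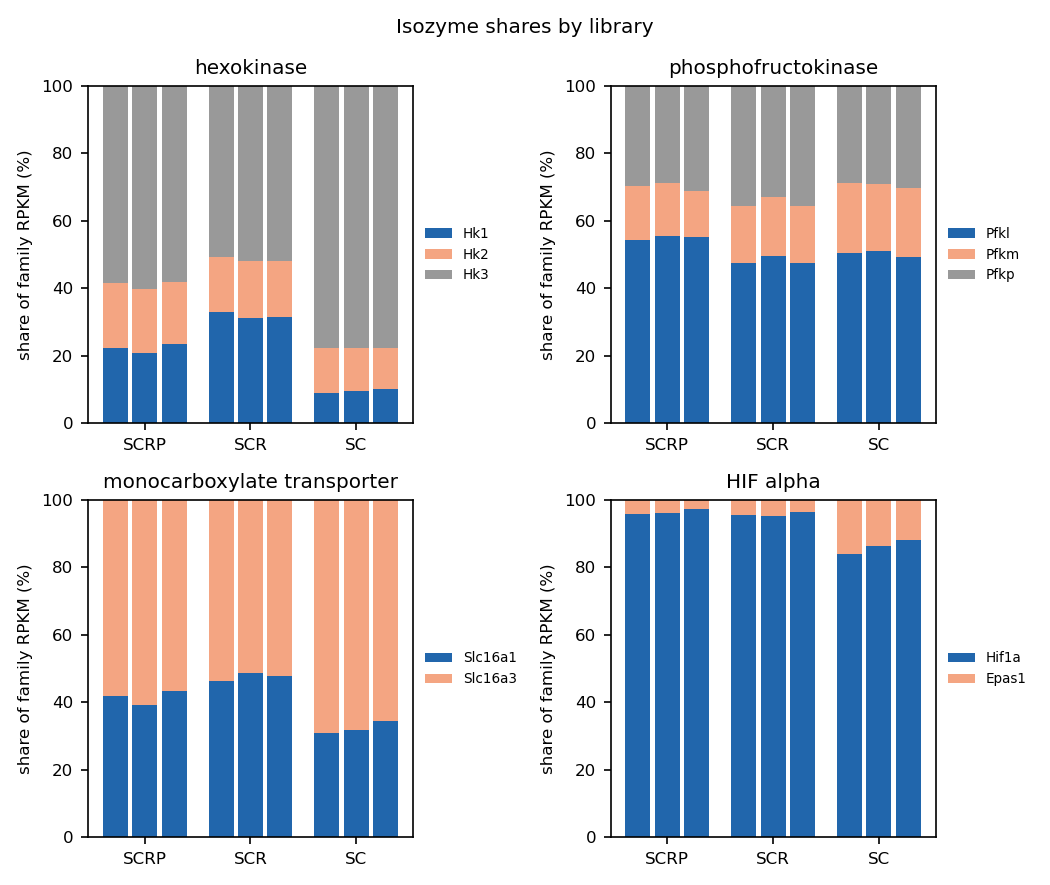
Share of each isozyme in the summed RPKM of its family, 1 stacked bar per library, for hexokinases, phosphofructokinase subunits, lactate exporters (monocarboxylate transporters) and HIF α subunits. Hk1 takes 31.1% to 33.0% of the hexokinase sum in SCR libraries against 9.13% to 10.1% in SC, and Epas1 takes 3.58% to 4.68% of the HIF α sum in SCR against 11.7% to 16.1% in SC.

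The 3 phosphofructokinase subunits, whose tetramer makes fructose 1,6-bisphosphate and commits the sugar to glycolysis, moved little. Pfkl, the liver-type subunit, had 116, 123 and 110 CPM in SCRP, 91.0, 94.4 and 90.3 CPM in SCR and 104, 107 and 102 CPM in SC, with SCRP highest and SCR lowest and no overlap. It was 1.26-fold higher in SCRP than SCR (log2 0.34 ± 0.05, edgeR adjusted p = 5.29e-05) and 1.14-fold lower in SCR than SC (adjusted p = 0.0043), and the second call was lost on library totals without scaling factors (adjusted p = 0.197). Its share of the subunit sum was 55.0% ± 0.68 in SCRP, 48.3% ± 1.2 in SCR and 50.3% ± 0.89 in SC. Pfkm, the muscle-type subunit, had 13.6 to 17.2 CPM in SCRP, 15.98 to 16.4 CPM in SCR and 20.8 to 21.4 CPM in SC. It fell by 0.39 ± 0.09 on the log2 scale in SCR against SC (edgeR adjusted p = 0.0020); its locus overlaps Senp1, which had 21047 exon reads. Pfkp, the platelet-type subunit, overlaps Pitrm1 with 35981 exon reads, and had 123 to 128 CPM in SCRP, 126 to 136 CPM in SCR and 118 to 126 CPM in SC. Its difference of 0.11 ± 0.05 in SCR against SC had an adjusted p of 0.0484 in edgeR, with overlapping libraries, and of 0.0851 to 0.149 without SCR library 1 or 3 or SC library 1 or 2.

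Pfkfb3 and Pfkfb4 make fructose 2,6-bisphosphate, the strongest activator of phosphofructokinase, and Pfkfb3 is a known hypoxia target. Pfkfb3 had 15.9, 16.99 and 17.6 CPM in SCRP, 16.5, 16.9 and 15.8 CPM in SCR and 35.7, 37.4 and 34.8 CPM in SC. Pfkfb4 had 18.6, 18.9 and 18.6 CPM in SCRP, 17.3, 16.3 and 16.7 CPM in SCR and 38.9, 34.6 and 37.3 CPM in SC. In both genes the SC libraries lay far above all RANKL libraries. Pfkfb3 fell by 1.13 ± 0.08 and Pfkfb4 by 1.14 ± 0.07 on the log2 scale in SCR against SC (edgeR adjusted p = 1.14e-09 and 7.95e-10). Neither passed the test between SCRP and SCR, where the log2 differences were 0.04 ± 0.08 and 0.16 ± 0.07 (edgeR adjusted p = 0.73 and 0.10).

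Aldoa, the 6 enzymes from Tpi1 to Pkm and the isomerase Gpi1 differed by at most 1.22-fold between SCR and SC. Aldoa, the aldolase that splits the 6-carbon sugar, had 1527, 1604 and 1558 CPM in SCRP, 1697, 1702 and 1688 CPM in SCR and 1510, 1489 and 1440 CPM in SC. Eno1, the enolase, had 1525, 1564 and 1524 CPM in SCRP, 1774, 1689 and 1729 CPM in SCR and 1461, 1431 and 1395 CPM in SC. In both the SCR libraries were the highest. Aldoa differed by -0.12 ± 0.03 (log2) in SCRP against SCR and by 0.20 ± 0.03 in SCR against SC (edgeR adjusted p = 0.012 and 0.0001). Eno1 was 1.21-fold higher in SCR than SC and 1.13-fold lower in SCRP than SCR (edgeR adjusted p = 3.03e-06 and 0.00093). Tpi1, the triose phosphate isomerase, and Gapdh, the oxidising step, shared that shape. Tpi1 had 435, 430 and 416 CPM in SCRP, 526, 504 and 522 CPM in SCR and 441, 425 and 421 CPM in SC, and Gapdh 2485, 2505 and 2458 CPM in SCRP, 2882, 2764 and 2793 CPM in SCR and 2627, 2652 and 2577 CPM in SC; in both, SCR lay above all other libraries. Tpi1 was 1.21-fold higher in SCR than SC and 1.21-fold lower in SCRP than SCR (edgeR adjusted p = 1.45e-05 and 3.15e-05), and Gapdh was 1.07-fold higher and 1.13-fold lower (edgeR adjusted p = 0.0098 and 0.00026). On unique reads alone Gapdh differed by 0.17 ± 0.06 in SCR against SC and by -0.25 ± 0.06 in SCRP against SCR (log2).

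Pgk1, which makes the first ATP of the pathway, had another pattern, with 1113, 1195 and 1079 CPM in SCRP, 921, 958 and 949 CPM in SCR and 1014, 991 and 1012 CPM in SC, so that every SCRP library was above all others. Pgk1 was 1.20-fold higher in SCRP than SCR (log2 0.26 ± 0.04, edgeR adjusted p = 8.39e-05), and its difference of -0.09 ± 0.04 between SCR and SC was not called (adjusted p = 0.057 in edgeR, 0.031 in DESeq2). Pkm, pyruvate kinase, the last ATP-making step, had 2975, 3088 and 3001 CPM in SCRP, 3062, 2956 and 2981 CPM in SCR and 3759, 3608 and 3619 CPM in SC; it fell by 0.29 ± 0.03 on the log2 scale in SCR against SC (edgeR adjusted p = 8.01e-07) and was not called between SCRP and SCR (0.01 ± 0.03, adjusted p = 0.83). Pgam1, phosphoglycerate mutase, had 578, 626 and 589 CPM in SCRP, 625, 689 and 663 CPM in SCR and 822, 783 and 748 CPM in SC, with SC above both RANKL groups, which overlapped. It was 1.19-fold lower in SCR than SC (edgeR adjusted p = 0.000235); its 1.10-fold lower level in SCRP than SCR (adjusted p = 0.028) was lost without SCRP library 1 or 3 or SCR library 2 or 3 (0.0783 to 0.138). Gpi1, the glucose 6-phosphate isomerase, had 551, 535 and 536 CPM in SCRP, 636, 632 and 632 CPM in SCR and 687, 684 and 658 CPM in SC. It was 1.17-fold lower in SCRP than SCR (edgeR adjusted p = 0.00011). Its 1.07-fold lower level in SCR than SC (edgeR adjusted p = 0.032) was lost without any SCR library or SC library 1 or 2 (0.073 to 0.117), and the log2 difference was 0.01 on library totals without scaling factors.

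At the end of the pathway, Ldha, Ldhb, Pdk1 and Slc16a1 were highest in SCR cells. Ldha, the lactate dehydrogenase subunit that favours lactate, had 675, 701 and 663 CPM in SCRP, 914, 922 and 918 CPM in SCR and 767, 762 and 748 CPM in SC. The groups did not overlap, with SCRP lowest. Ldha was 1.35-fold lower in SCRP than SCR and 1.21-fold higher in SCR than SC (edgeR adjusted p = 8.68e-08 and 4.82e-06). Ldhb, the subunit that favours pyruvate, was scarce per length (7.14 ± 0.59 RPKM in SCR), with 7.01, 6.73 and 5.80 CPM in SCRP, 11.0, 12.3 and 13.0 CPM in SCR and 10.4, 10.4 and 9.06 CPM in SC. It showed the largest fall of any member between SCRP and SCR, 1.86-fold (log2 -0.89 ± 0.12, edgeR adjusted p = 1.56e-05). Its 1.21-fold higher level in SCR than SC (edgeR adjusted p = 0.0482) was lost without SCR library 2 or 3 or any SC library (0.0550 to 0.164). Pdk1, the kinase that shuts pyruvate dehydrogenase, had 92.7, 91.9 and 98.9 CPM in SCRP, 116, 111 and 115 CPM in SCR and 83.5, 87.5 and 96.2 CPM in SC, 1.21-fold lower in SCRP than SCR and 1.28-fold higher in SCR than SC (edgeR adjusted p = 0.00096 and 3.19e-05).

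Slc16a1, the lactate and pyruvate carrier MCT1, had 52.4, 48.8 and 49.1 CPM in SCRP, 57.3, 63.4 and 63.2 CPM in SCR and 28.1, 27.6 and 30.1 CPM in SC. Every RANKL library lay above every SC library, and SCRP lay between the other groups. It was 2.14-fold higher in SCR than SC (log2 1.10 ± 0.06, edgeR adjusted p = 1.84e-10) and 1.22-fold lower in SCRP than SCR (adjusted p = 0.0012). Slc16a3, the exporter MCT4, had 87.4, 90.7 and 76.6 CPM in SCRP, 79.3, 80.4 and 82.8 CPM in SCR and 74.9, 71.4 and 69.0 CPM in SC. It stood 1.13-fold higher in SCR than SC (edgeR adjusted p = 0.024; 0.0585 to 0.0775 without SCR library 3, SC library 2 or SC library 3) and was not called between SCRP and SCR (log2 0.07 ± 0.06). The share of Slc16a1 in the summed RPKM of both carriers was 41.5% ± 2.1 in SCRP, 47.7% ± 1.1 in SCR and 32.4% ± 1.8 in SC, with no overlap between groups (two-sided exact permutation p = 0.1, the smallest possible).

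Of the hypoxia factors, Epas1 had the larger fold change between SCR and SC, a difference from Hif1a that was not tested. Epas1, which encodes HIF-2α, had 5.39, 5.41 and 4.24 CPM in SCRP, 4.73, 5.68 and 4.29 CPM in SCR and 23.2, 20.2 and 19.4 CPM in SC. All 6 RANKL libraries lay far below SC. It was 4.29-fold lower in SCR than SC (log2 -2.10 ± 0.13, edgeR adjusted p = 6.68e-10) and was not called between SCRP and SCR (0.04 ± 0.14, adjusted p = 0.86). Hif1a had 127, 141 and 155 CPM in SCRP, 109, 122 and 122 CPM in SCR and 128, 133 and 154 CPM in SC. The SCR libraries lay below all others, and SCRP and SC overlapped. Hif1a was 1.20-fold higher in SCRP than SCR (edgeR adjusted p = 0.012; 0.0741 without SCRP library 3 and 0.0695 without SCR library 1) and 1.18-fold lower in SCR than SC (adjusted p = 0.013; 0.0852 without SCR library 1, 0.0961 without SC library 3 and 0.151 without scaling factors). Per length Epas1 was 3.66% ± 0.77 of the 2 factors in SCRP, 4.21% ± 0.57 in SCR and 13.8% ± 2.2 in SC; with unique reads, which leave out part of the Hif1a reads, these shares were 5.57%, 6.42% and 20.2%.

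The oxygen sensors differed in level and in change. Egln1, the main HIF prolyl hydroxylase, had 51.2, 51.7 and 52.7 CPM in SCRP, 43.9, 44.9 and 42.0 CPM in SCR and 51.8, 54.3 and 55.1 CPM in SC. SCR was the lowest group, with no overlap. Egln1 was 1.19-fold higher in SCRP than SCR and 1.23-fold lower in SCR than SC (edgeR adjusted p = 0.0016 and 0.00014). Egln3, a hydroxylase that hypoxia itself induces, stayed at 0.765 to 1.41 CPM over the 9 libraries and was not called in any comparison.

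Of the 4 hypoxia targets, 1 was higher, 2 were lower and 1 was not called in SCR against SC, beside 30.7% of all genes tested higher and 28.4% lower. Vegfa, the angiogenic growth factor, had 9.90, 11.2 and 7.61 CPM in SCRP, 11.2, 9.85 and 8.73 CPM in SCR and 3.18, 3.04 and 2.96 CPM in SC. All RANKL libraries lay above all SC libraries. It was 3.24-fold higher in SCR than SC (log2 1.70 ± 0.16, edgeR adjusted p = 9.97e-08), the largest rise of any member, and was not called between SCRP and SCR (-0.06 ± 0.15, adjusted p = 0.80). Ndrg1, a stress-responsive gene, was lowest in SCRP, with 10.4, 11.0 and 13.2 CPM in SCRP, 14.9, 15.3 and 18.96 CPM in SCR and 25.9, 26.5 and 34.7 CPM in SC. Ndrg1 was 1.42-fold lower in SCRP than SCR and 1.77-fold lower in SCR than SC (edgeR adjusted p = 0.0058 and 3.14e-05). Ankrd37, an ankyrin-repeat gene, had 1.17 to 1.76 CPM in SCRP, 0.810 to 1.43 CPM in SCR and 2.28 to 3.21 CPM in SC. It was 2.40-fold lower in SCR than SC (edgeR adjusted p = 0.0028), on 682 reads in all 9 libraries; it overlaps Ufsp2, which had 27052 reads. Bnip3, a mitophagy receptor, had 43.3, 38.9 and 39.6 CPM in SCRP, 39.8, 38.4 and 36.6 CPM in SCR and 37.9, 38.8 and 38.8 CPM in SC and was not called in any comparison.

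Set directly against SC, SCRP cells had 6 members higher, 15 lower and 9 not called, beside 28.6% of all genes tested higher and 27.4% lower (56.0% in all). At a fold of at least 1.5, 2 were higher and 8 lower, beside 10.2% and 13.6% of all genes tested (23.8% in all), and the libraries did not overlap for 23 members, beside 61.5% of all genes tested. Hk3, Epas1, Hk2, Pfkfb3 and Pfkfb4 were also below SC in SCRP, at log2 -2.01, -2.06, -1.05, -1.10 and -0.98. Vegfa and Slc16a1 stayed above SC, at 1.64 and 0.81. Hk1 and Ldhb, which were higher in SCR than SC, were below SC in SCRP, at -0.40 and -0.62 (edgeR adjusted p = 1.21e-06 and 0.00031).

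Intron reads, which come largely from unspliced RNA, gave a second readout of the same libraries for 29 members. In SCR against SC, 2 members were higher in intron reads (Aldoa and Vegfa) and 7 lower (Hk3, Pfkm, Pfkfb3, Pfkfb4, Pgam1, Pkm and Ankrd37), beside 16.3% and 15.3% of the 12665 genes tested on intron reads (31.6% in all). All 9 were also called in exon reads, in the same direction. The share of all genes that did so is not given here. Hk3 had 1091, 1111 and 1086 intron reads in SCRP, 1255, 986 and 1213 in SCR and 3710, 3487 and 2683 in SC, a log2 difference of -1.72 ± 0.10 in SCR against SC beside -1.995 ± 0.05 in exon reads. In SCRP against SCR, no member was higher and 4 were lower in intron reads (Hk2, Aldoa, Ldha and Epas1), beside 6.21% and 7.85% of genes tested (14.1% in all). Of these 4, 2 (Aldoa and Ldha) were also called in exon reads, in the same direction. Hk2 had 68, 106 and 105 intron reads in SCRP against 184, 186 and 143 in SCR, a fall by 0.94 ± 0.22 on the log2 scale (edgeR adjusted p = 0.0030), while its exon reads differed by -0.04 ± 0.06; the difference between the readouts was not tested. The Epas1 call rested on 5 intron reads in SCRP libraries against 36 in SCR, and its exon reads differed by 0.04 ± 0.14. Hk1, at -0.73 ± 0.05 in exon reads of SCRP against SCR, differed by 0.0014 ± 0.18 in intron reads and was not called there.

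The knockout experiment was open to the members only through the genes its authors called, because that table stops at its authors' own calls: its weakest entry has a corrected p of 0.05, and its smallest fold is 2.00. Sik3 itself had 2.57, 1.89 and 2.08 RPKM in KO cells against 6.25, 6.37 and 6.01 RPKM in WT cells, 2.86-fold lower. Of the 30 members 4 were listed (13.3%), beside 13.8% of the genes tested in the pterosin B experiment, so the members were listed about as often as other genes. The other 26 members were not analysed here for this comparison. Since listing is itself the authors' call on these libraries, the p-values of listed members are no independent evidence; of the 1773 listed genes tested here, 99.5% were called, 48.3% higher and 51.3% lower.

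Hk3 had 94.3, 93.9 and 96.9 RPKM in KO cells against 33.9, 36.5 and 34.9 RPKM in WT cells, and Pfkfb3 3.45, 3.52 and 3.58 RPKM against 1.63, 1.44 and 1.80 RPKM. Both were higher in all 3 KO libraries, by 2.71-fold (log2 1.44 ± 0.04 SE) and 2.16-fold (1.11 ± 0.09). Ldhb had 5.84, 5.88 and 5.80 RPKM in KO cells against 19.9, 20.2 and 21.7 RPKM in WT cells, 3.53-fold lower (-1.82 ± 0.08). Vegfa had 1.46, 1.17 and 1.44 RPKM in KO cells against 3.24, 2.89 and 3.07 RPKM in WT cells, 2.26-fold lower (-1.18 ± 0.12). In none of the 4 did the KO and WT libraries overlap. Listing was the authors' call on these same libraries, so this separation was favoured in advance and is no independent evidence. Its share over all listed genes is not given here. The authors' deposited table gives folds of 2.76 for Hk3, 2.20 for Pfkfb3, -3.46 for Ldhb and -2.22 for Vegfa, where a negative sign stands for lower in KO. The same table lists all 10 osteoclast markers as lower and 9 of 10 macrophage markers as higher in KO cells, and their part in the members' differences was not tested.

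**Figure D4:**
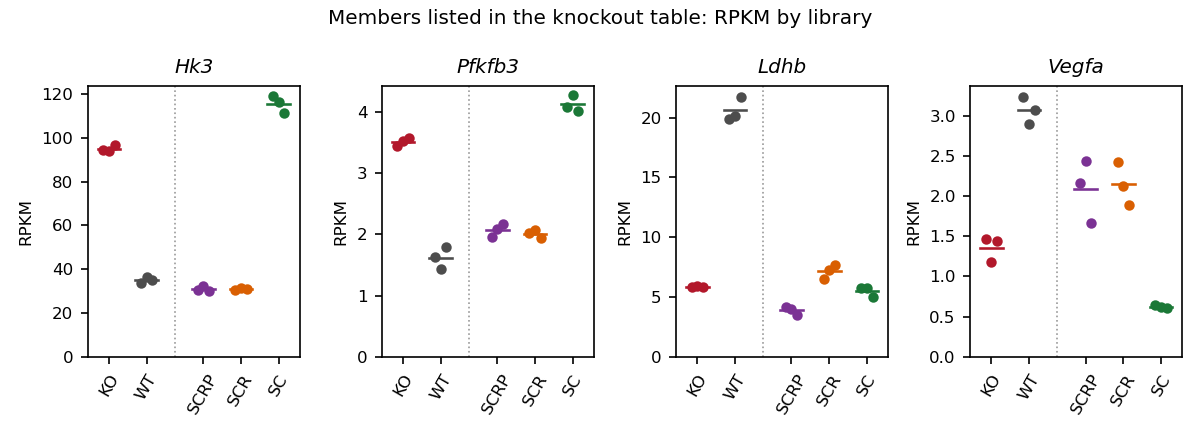
RPKM of the 4 members of the knockout table in every library; points are libraries, short lines are means of 3, and the dotted line divides the 2 tables, which were normalized separately. Hk3 lies at 93.9 to 96.9 RPKM in KO against 33.9 to 36.5 RPKM in WT, and the SCRP and SCR libraries lie together in Hk3, Pfkfb3 and Vegfa.

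The pterosin B experiment shares no library with the knockout experiment. Hk3 and Pfkfb3 were lower in SCR than SC and higher in KO than WT. Vegfa and Ldhb were higher in SCR than SC and lower in KO than WT. All 4 members thus had in KO against WT the opposite sign to SCR against SC. That is the general direction of the listed genes, 1328 of 1359 of which (97.7%), among those called in SCR against SC, had opposite signs and 2.28% the same sign; 81.5% of the listed genes tested in both were called. Between SCRP and SCR, 3 of the 4 did not pass the test. Hk3, Pfkfb3 and Vegfa differed by -0.02 ± 0.05, 0.04 ± 0.08 and -0.06 ± 0.15 there, and Ldhb alone was called, lower as in KO. Of all listed genes tested in both, 57.9% were called between SCRP and SCR, and 89.5% of those had the sign they had in KO against WT and 10.5% the opposite. The tables were normalized separately, so levels across them were not tested. Ldhb stood at 19.9 to 21.7 RPKM in WT cells, which had 2 days of RANKL, beside a mean of 7.14 ± 0.59 RPKM in SCR cells, which had 3, while Hk3 stood at 33.9 to 36.5 RPKM in WT cells and 30.4 to 31.7 RPKM in SCR cells.

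The other genes of these pathways came from lists of whole pathways, drawn up with earlier results of these data known. Their counts are to be read beside the shares of all genes tested, 17.9% higher and 19.9% lower in SCRP against SCR and 30.7% higher and 28.4% lower in SCR against SC, with medians of 0.0046 and 0.02. Of 28 tested further glycolysis genes (isozymes, carriers and pyruvate handling), 2 were higher and 13 lower in SCRP against SCR, with a median log2 fold change of -0.26, and 10 were higher and 7 lower in SCR against SC, with a median of 0.17. Pfkfb2, another maker of fructose 2,6-bisphosphate, averaged 24.7 CPM in SCRP, 73.3 in SCR and 22.7 in SC, 2.97-fold lower in SCRP than SCR (edgeR adjusted p = 3.31e-10), the opposite of Pfkfb3 and Pfkfb4 in SCR against SC; 20.4% of its reads were unique. Slc16a7, the high-affinity pyruvate and lactate carrier MCT2, averaged 23.3 CPM in SCRP, 65.2 in SCR and 43.1 in SC (2.80-fold lower in SCRP than SCR, edgeR adjusted p = 4.00e-10). Pdhb, a subunit of pyruvate dehydrogenase, averaged 93.8 CPM in SCRP, 171 in SCR and 74.7 in SC (1.82-fold lower in SCRP than SCR, edgeR adjusted p = 1.12e-09).

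The 8 pentose phosphate genes, which draw glucose 6-phosphate off to make NADPH, were counted in the same way: 5 were higher and 1 lower in SCRP against SCR (median log2 fold change 0.26), and 3 were higher and 3 lower in SCR against SC (median -0.01), beside 17.9% higher and 19.9% lower, and 30.7% higher and 28.4% lower, of all genes tested. G6pdx, the gatekeeping dehydrogenase, averaged 516 CPM in SCRP, 313 in SCR and 458 in SC, 1.65-fold higher in SCRP than SCR (edgeR adjusted p = 6.52e-09). Of 11 tested genes of gluconeogenesis and glycogen, 4 were higher and 2 lower in SCRP against SCR and 3 higher and 5 lower in SCR against SC.

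Among 13 tested components of the HIF pathway, 3 were higher and 1 lower in SCRP against SCR, and 1 was higher and 6 lower in SCR against SC. Of all genes tested, 17.9% were higher and 19.9% lower in SCRP against SCR, and 30.7% higher and 28.4% lower in SCR against SC. The 1 that was lower with pterosin B and higher with RANKL was Cited2, which competes with HIF for its coactivator: it averaged 123 CPM in SCRP, 181 in SCR and 71.4 in SC (edgeR adjusted p = 7.16e-07 for SCRP against SCR and 4.49e-12 for SCR against SC). Arnt, the partner of both HIF α subunits, averaged 64.7 CPM in SCRP, 50.8 in SCR and 70.9 in SC (edgeR adjusted p = 0.00033 for SCRP against SCR and 4.97e-06 for SCR against SC). Of 28 further hypoxia targets, 4 were higher and 6 lower in SCRP against SCR and 8 were higher and 8 lower in SCR against SC, with medians of 0.02 and -0.0047, near the shares and medians of all genes tested in SCR against SC. Bhlhe40, a transcriptional repressor, averaged 74.4 CPM in SCRP, 171 in SCR and 31.2 in SC (edgeR adjusted p = 8.80e-08 for SCRP against SCR and 5.10e-12 for SCR against SC). P4ha2, a collagen prolyl hydroxylase, had the opposite signs, with 9.43 CPM in SCRP, 6.09 in SCR and 32.7 in SC (edgeR adjusted p = 0.0031 and 4.07e-10). Of 11 tested regulators of glycolysis outside the HIF pathway, 2 were higher and 4 lower in SCRP against SCR and 5 higher and 2 lower in SCR against SC; Myc, which drives glycolytic genes, averaged 169 CPM in SCRP, 129.5 in SCR and 85.5 in SC (edgeR adjusted p = 1.92e-05 for SCRP against SCR and 4.17e-08 for SCR against SC).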

How the data were processed

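The authors deposited counts of all exon reads per gene, of uniquely mapped exon reads and of intron reads, with RPKM, which are scaled for exon length and depth per the file headers. The reads were placed on GRCm38 (mm10), per the submitters' processing notes. Which aligner and counter were run, and whether counting used the strand, is not given in the sources used here. Libraries were made from rRNA-depleted RNA with a directional kit, per the labels' protocols. The knockout table also holds a p-value, a corrected p-value and a signed fold (a score) from the authors' own test, per the file headers. Besides these, 123 columns of per-sample values were not used.

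The 9 pterosin B libraries were fitted together with edgeR 4.0.16 in R 4.3.3 (TMM scaling, filterByExpr, quasi-likelihood test, Benjamini-Hochberg adjustment over 13650 genes), with DESeq2 1.42.0 as an alternative. The KO and WT libraries were fitted on the 1773 genes that passed the same filter, with library totals implied by reads and RPKM (exon reads over RPKM and length). The fit was also run on simulated counts, drawn independently with the same spread setting for every gene. That setting differs from the data, so the run checks the code and not the p-values. Isozyme shares are parts of summed RPKM, compared with exact permutation tests. Copies were sought with BLAST 2.17.0. Values with ± are SD for levels and shares, and SE for log2 fold changes; n is 3 per group. All 30 members are named, and from each further list up to 4 called genes with the largest change and a mean of at least 8 CPM in each comparison, of which the text gives examples chosen after their values were seen. The members and the lists were chosen with earlier results of these data known.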

Additional observations from a re-analysis of the deposited data

How the results depend on the processing

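Leaving out TMM scaling factors, an alternative chosen after seeing the data, moved the median log2 fold change of all genes tested to 0.12 in SCR against SC (62.4% of calls higher, against 52.0% with scaling), to 0.14 in SCRP against SC (64.0% against 51.1%) and to 0.02 in SCRP against SCR. The median over members became 0.0285 in SCR against SC and 0.0605 in SCRP against SC, and 11 members in place of 6 were called higher in SCRP against SC. Signs turned for Gpi1 in SCR against SC (0.0124, adjusted p = 0.80), Tpi1 in SCRP against SC (0.118, adjusted p = 0.016) and Gapdh in SCRP against SC (0.0477, adjusted p = 0.22, edgeR), and calls were lost for Pfkl and Hif1a in SCR against SC and Ldha in SCRP against SC. All other counts of members kept within 1.5 times the value reported under every alternative run, and no call in SCRP against SCR changed except on leaving out a library. With the replicate block, 26 members were called in SCR against SC, as without it (Pgk1 gained and Ldhb lost). Aldoa gained a call in SCRP against SC. Same-numbered libraries correlated from -0.06 to 0.12 in their deviations, and libraries of different number from -0.12 to 0.10. Between SCR and SCRP the same-numbered pairs stood at 0.07, 0.12 and 0.04, the others at -0.09 to 0.02. The labels give no pairing, and whether same-numbered libraries are paired cannot be told from these values. DESeq2, median-of-ratios factors, no low-count filter and fits of 2 groups changed calls only for Gpi1, Pfkp, Ldhb and Pgk1 in SCR against SC and Gapdh in SCRP against SC. Without 1 library, Gapdh (adjusted p 0.0563 to 0.174), Ankrd37 (0.0558 to 0.0973), Pfkl (0.117) and Eno1 (0.0761) lost their calls in SCRP against SC. The 4 members of the knockout table kept direction and call under all alternatives run, and unique reads were not run there. These genes were listed through the authors' own call on the same libraries, and 99.5% of the listed genes tested were called. The authors' deposited fold was itself among the alternatives. Keeping the call was thus largely fixed in advance and is no independent evidence. Ankrd37, with 682 reads, and Egln3 limit what can be said of low genes.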
